A study of Sus scrofa with 9 samples.

Results

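MYF5, MYOD1, MYF6 and MYMK were described in embryonic longissimus dorsi, a long back muscle, of 3 pig breeds. They are the 4 of 19643 entries in the expression table whose identifiers map to these symbols, and each symbol maps to 1 entry: ENSSSCG00000000937 for MYF5, ENSSSCG00000013375 for MYOD1, ENSSSCG00000026533 for MYF6 and ENSSSCG00000022891 for MYMK. MYF5, MYOD1 and MYF6 are basic helix-loop-helix (bHLH) transcription factors that commit cells to muscle and switch on muscle genes. MYMK, myomaker, is the membrane protein that lets myoblasts fuse into multinucleated fibres. The groups were 3 libraries of Tibetan pigs and 3 of Wujin pigs, both indigenous Chinese breeds, and 3 of Large White pigs, an introduced breed. All libraries carry the label embryonic, with no gestational day, sex or treatment, and the labels do not say whether the libraries of a breed came from separate or pooled animals. The p-values below therefore measure only the spread between these libraries, which may be technical. Only 1 Wujin column carries a distinct number, so the other 2 are called Wujin a and Wujin b.

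Myogenic bHLH factors act as dimers with broadly expressed E proteins and bind E-boxes, short motifs in the promoters and enhancers of muscle genes. In mice, MYF5 and MYOD1 act in determination, in progenitors and myoblasts, whereas MYF6 (also called MRF4) becomes the most abundant of the family in mature fibres. Myomaker is expressed in differentiating myoblasts while they fuse, under control of the bHLH factors, and is low once fibres have formed. A fall in such a gene in whole tissue can mean fewer expressing cells or less RNA per cell, which cannot be told apart here.

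Levels are FPKM, fragments scaled to transcript length and to the size of the library, which are per length and so can be compared between genes. The depth behind each value is unknown, and counting error cannot be stated. Of all entries, 13106 averaged at least 1 FPKM and were tested with limma on log2(FPKM + 1), a scale that understates changes of low genes. Calls were made where p, adjusted by Benjamini-Hochberg over all 13106, was under 0.05. The 4 genes all passed that filter. Tibetan libraries stood apart from the others in overall distribution: the median FPKM of tested genes was 3.15 to 3.61 in Tibetan libraries, 4.84 to 6.27 in Wujin libraries and 6.72 to 7.20 in those of Large White. The median fitted log2 change of all tested genes was -0.77 for Tibetan minus Large White, -0.20 for Wujin minus Large White and -0.55 for Tibetan minus Wujin. Each result was therefore also computed after median-ratio scaling, which divides each library by its median ratio to the geometric mean over genes above 0 in every library, and which brought these medians to -0.01, 0.00041 and -0.0036. The comparisons share libraries and are not independent of one another.

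MYF5 and MYMK were far lower in Tibetan muscle than in either other breed, MYF6 was higher than in Large White muscle, and the place of MYOD1 depended on the scaling. Between Wujin and Large White none of the 4 genes was called. For Tibetan against Large White, 4 of 4 were called with FPKM as deposited, where 76.2% of all tested genes were (13% higher and 63.2% lower). After median-ratio scaling 3 of 4 were called, against 65.4% of tested genes (32.4% higher and 33% lower). A gene was likewise apart in all 3 Tibetan from all 3 Large White libraries, without overlap, in 80.6% of tested genes (14.1% higher and 66.5% lower), or in 72.9% after scaling (36.1% higher and 36.8% lower); this held for 4 of 4 members as deposited and 3 of 4 after scaling. For Tibetan against Wujin, 3 of 4 were called on either scale, not the same 3, where 67.7% of tested genes were called as deposited (13.8% higher and 53.9% lower) and 61.3% after scaling (30.9% higher and 30.4% lower). Those breeds did not overlap in 3 of the 4 genes as deposited, beside 67.7% of tested genes (14.2% higher and 53.5% lower), and in 2 of the 4 after scaling, beside 63.5% (31.9% higher and 31.6% lower). Counts over 4 genes this near the background are no result about them, so the sizes and directions carry the description.

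**Figure D1:**
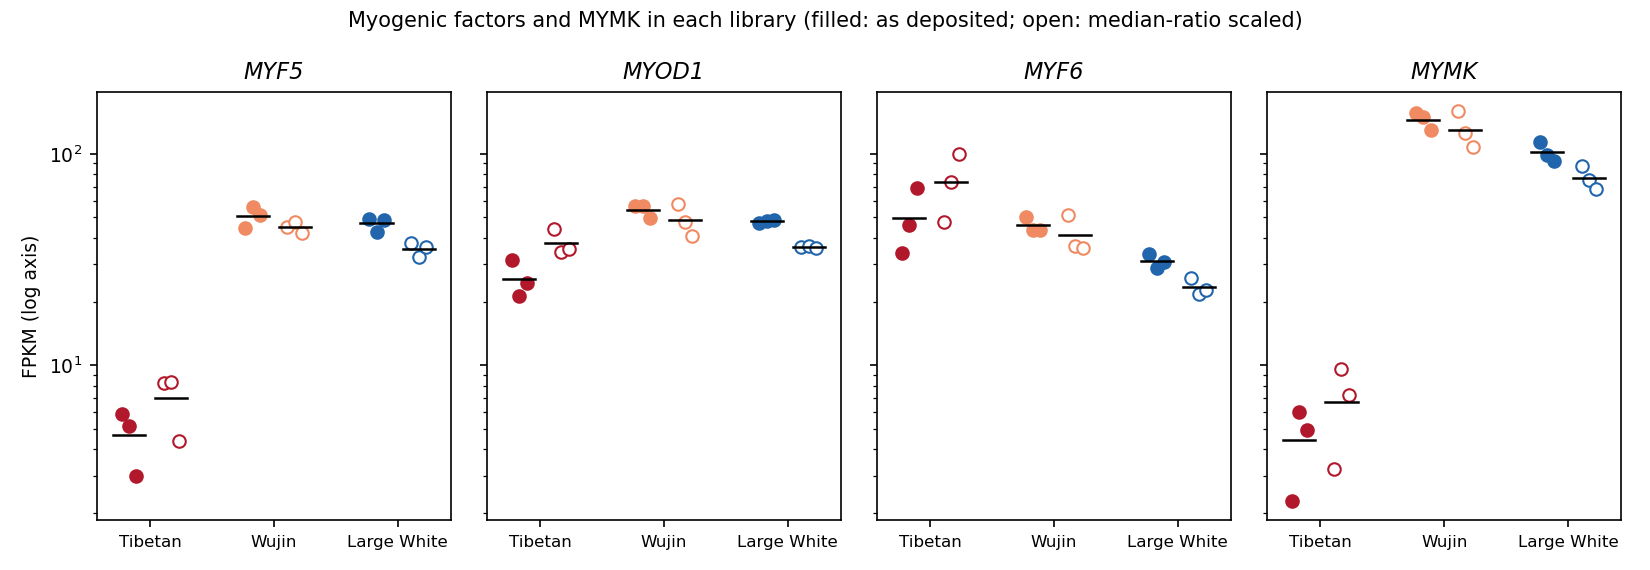
FPKM of MYF5, MYOD1, MYF6 and MYMK (log axis) in the 3 libraries of each breed, as deposited (filled) and median-ratio scaled (open), with the mean as a line. MYF5 and MYMK in Tibetan libraries lie below every Wujin and Large White library on both scales, and MYF6 lies above every Large White library.

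MYF5 is the earliest of the family to appear in the mouse embryo. It stood at 5.86, 5.18 and 3.01 FPKM in Tibetan 1, 2 and 3. It stood at 44.3, 56.3 and 51.5 FPKM in Wujin 1, a and b, against 49.0, 42.9 and 48.9 FPKM in Large White 1, 2 and 3. Every Tibetan value was below every value of the other breeds, and the Wujin and Large White ranges overlapped. MYF5 averaged 4.68 ± 1.49 FPKM in Tibetan, 50.7 ± 6.02 FPKM in Wujin and 46.9 ± 3.51 FPKM in Large White libraries (SD, n = 3 each). The fitted log2 change was -3.11 ± 0.20 (SE) for Tibetan minus Large White (limma, adjusted p = 1.10e-06) and -3.22 ± 0.20 for Tibetan minus Wujin (adjusted p = 1.22e-06). After median-ratio scaling these were -2.23 ± 0.20 (limma, adjusted p = 1.36e-05) and -2.57 ± 0.20 (adjusted p = 6.44e-06). Ranked by FPKM within each library, which no library-wide factor can alter, MYF5 lay at the 45.8th to 63.1st percentile of tested genes in Tibetan libraries. It lay at the 91.8th to 93.2nd percentile in Wujin and the 90.9th to 92.0th in Large White libraries. The change of Wujin minus Large White was 0.11 with a 95% interval of -0.34 to 0.55, and 0.34 (-0.12 to 0.80) after scaling.

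MYOD1, the factor that can turn fibroblasts into muscle in culture, was lower in Tibetan muscle as deposited and was not called after scaling. It stood at 31.4, 21.3 and 24.4 FPKM in Tibetan 1, 2 and 3. It stood at 56.9, 56.7 and 49.6 FPKM in Wujin 1, a and b, against 46.9, 48.2 and 48.5 FPKM in Large White 1, 2 and 3. As deposited, the Tibetan values lay below all others. The fitted change was -0.89 ± 0.14 for Tibetan minus Large White (limma, adjusted p = 0.000391) and -1.07 ± 0.14 for Tibetan minus Wujin (adjusted p = 0.000156). Against the median of all tested genes the first of these was -0.12 and the second -0.52. After median-ratio scaling MYOD1 stood at 44.2, 34.2 and 35.5 in Tibetan, 58.0, 47.7 and 40.8 in Wujin and 36.2, 36.5 and 35.7 in Large White libraries, all in scaled FPKM. The Tibetan values then overlapped with those of both other breeds. The scaled change was 0.06 (95% interval -0.29 to 0.41) for Tibetan minus Large White (limma, adjusted p = 0.749) and -0.35 (-0.70 to -0.0040) for Tibetan minus Wujin (adjusted p = 0.0739), and neither was called. The scaled change of Tibetan minus Wujin was called without Tibetan 1 (-0.45, limma adjusted p = 0.0381) or Wujin b (-0.47, adjusted p = 0.0306). In rank, MYOD1 stood slightly lower in Tibetan libraries, at the 87.1st to 89.7th percentile, against the 92.5th to 93.6th in Wujin and the 91.4th to 92.0th in Large White libraries. For Wujin minus Large White the change was 0.18 (-0.15 to 0.50), or 0.41 (0.06 to 0.76) after scaling, with adjusted p-values of 0.403 and 0.137 in limma. The coefficient of variation was 20.1% in Tibetan, 7.59% in Wujin and 1.69% in Large White libraries, so the Large White values lay closest together.

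MYF6, the family member of mature fibres, was higher in Tibetan than in Large White muscle. It stood at 33.9, 45.9 and 68.7 FPKM in Tibetan 1, 2 and 3. It stood at 50.3, 43.7 and 43.6 FPKM in Wujin 1, a and b, against 33.7, 28.7 and 30.8 FPKM in Large White 1, 2 and 3. Tibetan 1 was barely above Large White 1, while Tibetan 3 was at 2.03 times Tibetan 1, so the breed's mean of 49.5 ± 17.7 FPKM (SD, n = 3) carries a wide spread. The means were 45.9 ± 3.86 FPKM in Wujin and 31.1 ± 2.50 FPKM in Large White libraries. MYF6 was called higher in Tibetan than in Large White libraries, with a fitted change of 0.60 ± 0.22 (limma, adjusted p = 0.0317). That call ended without Tibetan 2 (0.63, adjusted p = 0.0575 in limma), Tibetan 3 (0.34, 0.0814), Large White 2 (0.55, 0.0904) or Large White 3 (0.60, 0.0718). After median-ratio scaling the values were 47.8, 73.6 and 100.1 in Tibetan, 51.3, 36.7 and 35.9 in Wujin and 25.9, 21.7 and 22.7 in Large White libraries. The scaled change of Tibetan minus Large White was 1.55 ± 0.25 (limma, adjusted p = 0.000535), and it was called with any single library left out (1.32 to 1.84). For Tibetan minus Wujin, MYF6 changed by 0.05 ± 0.22 as deposited (limma, adjusted p = 0.845) and by 0.78 ± 0.25 after scaling (adjusted p = 0.0239). The ranges of the 2 breeds overlapped on both scales, and the scaled call ended without Tibetan 2, Tibetan 3, Wujin a or Wujin b. All 3 Wujin values lay above all 3 Large White values. The change of Wujin minus Large White was 0.55 (0.05 to 1.05), not called after adjustment (limma, adjusted p = 0.127), and 0.77 (0.20 to 1.35) after scaling (adjusted p = 0.110). MYF6 and MYF5 are adjacent in the RefSeq annotation of the pig assembly Sscrofa11.1, with 0 annotated genes between them and no overlap, and their Tibetan levels differed from Large White in opposite directions.

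MYMK had the lowest Tibetan levels of the 4 genes relative to the other breeds. It stood at 2.29, 5.999 and 4.94 FPKM in Tibetan 1, 2 and 3. It stood at 155, 149 and 130 FPKM in Wujin 1, a and b, against 114, 98.9 and 92.9 FPKM in Large White 1, 2 and 3. The 3 breeds did not overlap, with Tibetan lowest, Large White in between and Wujin highest, though the step between Wujin and Large White was not called. Means were 4.41 ± 1.91 FPKM in Tibetan, 145 ± 13.1 FPKM in Wujin and 102 ± 10.7 FPKM in Large White libraries (SD, n = 3 each), so the Tibetan mean was lower by a factor of 32.8 than that of Wujin and of 23.1 than that of Large White. The fitted change was -4.31 ± 0.25 for Tibetan minus Large White (limma, adjusted p = 6.49e-07) and -4.82 ± 0.25 for Tibetan minus Wujin (adjusted p = 4.53e-07). After scaling they were -3.44 ± 0.31 (limma, adjusted p = 1.24e-05) and -4.18 ± 0.31 (adjusted p = 4.25e-06). As deposited, 0.832% of all tested genes had a change of Tibetan minus Large White this low or lower. MYMK ranked at the 37.6th to 66.6th percentile of tested genes in Tibetan, the 96.9th to 97.3rd in Wujin and the 95.6th to 96.3rd in Large White libraries. Wujin minus Large White was 0.51 (-0.06 to 1.07; limma, adjusted p = 0.191), or 0.74 (0.04 to 1.44; adjusted p = 0.169) after scaling.

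**Figure D2:**
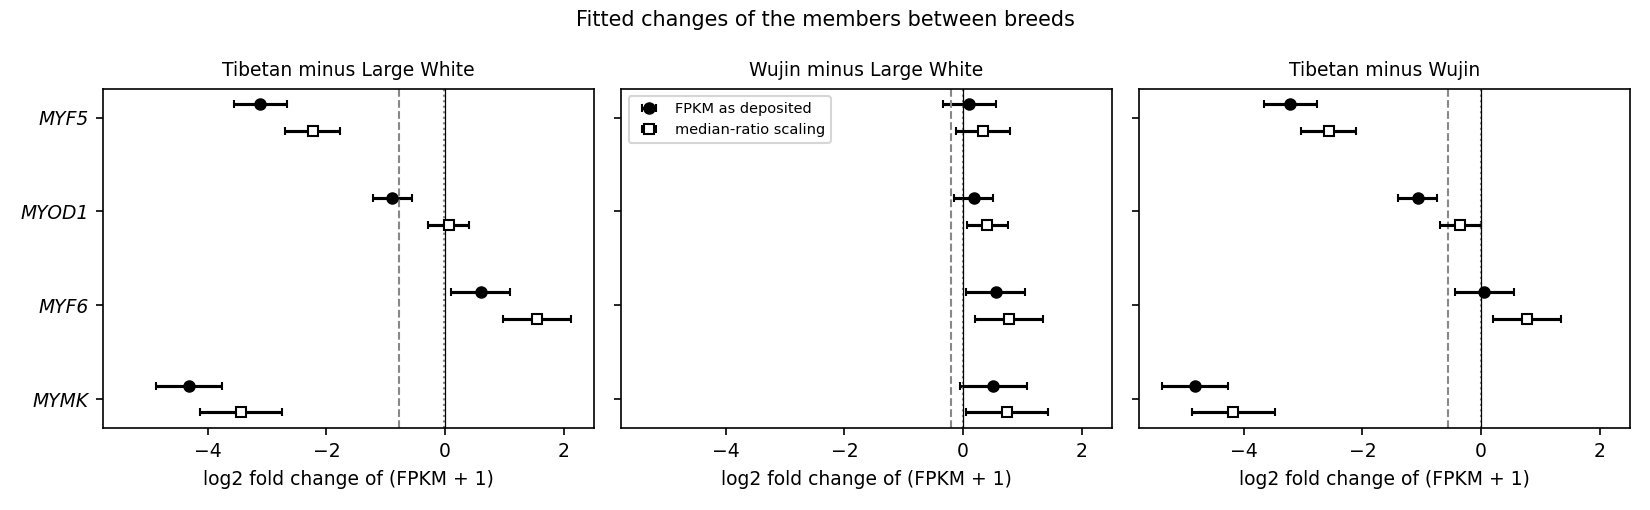
Fitted log2 fold changes of (FPKM + 1) with 95% intervals in the 3 comparisons, as deposited (circles) and median-ratio scaled (squares). Dashed and dotted lines mark the median of all tested genes as deposited and after scaling. MYMK and MYF5 lie to the left of these lines in both Tibetan comparisons, MYF6 lies to the right in all 3, and MYOD1 in Tibetan minus Large White lies on either side of 0 depending on the scaling.

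In Wujin against Large White, 0 of the 4 genes were called by limma at an adjusted p under 0.05, where 6.52% of all tested genes were (1.67% higher and 4.85% lower), or 3.14% after scaling (1.87% higher and 1.27% lower). By limma's p without adjustment, 1 of the 4 (MYF6) fell under 0.05 as deposited and 3 of the 4 (MYF6, MYOD1 and MYMK) after scaling. The matching share of all tested genes is not given here, so these counts are no result about the 4 genes. All 4 fitted changes were positive on both scales. Without overlap, MYOD1, MYF6 and MYMK were higher in all 3 Wujin than in all 3 Large White libraries, where 44.9% of tested genes did not overlap (9.67% higher and 35.3% lower). After scaling all 4 genes were higher without overlap, beside 40% of tested genes (19.7% higher and 20.3% lower). The number of genes called in this comparison, 855, was itself unstable, from 62 without Large White 3 to 1627 without Wujin b.

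The proportions of the 4 genes within a library involve no scaling between libraries. MYMK made up 3.12%, 7.66% and 4.89% of the summed FPKM of the 4 genes in Tibetan 1, 2 and 3. It made up 50.6%, 48.7% and 47.4% in Wujin 1, a and b, against 46.7%, 45.2% and 42.0% in Large White 1, 2 and 3. MYMK was thus the most abundant of the 4 in every Wujin and Large White library, and the lowest or the second lowest in Tibetan libraries, where MYF6 was highest. Among the 3 bHLH factors alone, MYF6 held 47.7%, 63.4% and 71.5% in Tibetan 1, 2 and 3, but 27.9% to 33.2% in Wujin libraries and 24.0% to 26.0% in those of Large White. MYF5 held 8.23%, 7.15% and 3.13% of the 3 factors in the Tibetan libraries. Its share was 29.3% to 35.9% in Wujin libraries and 35.8% to 38.1% in those of Large White. The share of MYOD1 was 25.4% to 44.1% in Tibetan, 34.3% to 37.5% in Wujin libraries and 36.2% to 40.2% in those of Large White, and these ranges overlapped.

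**Figure D3:**
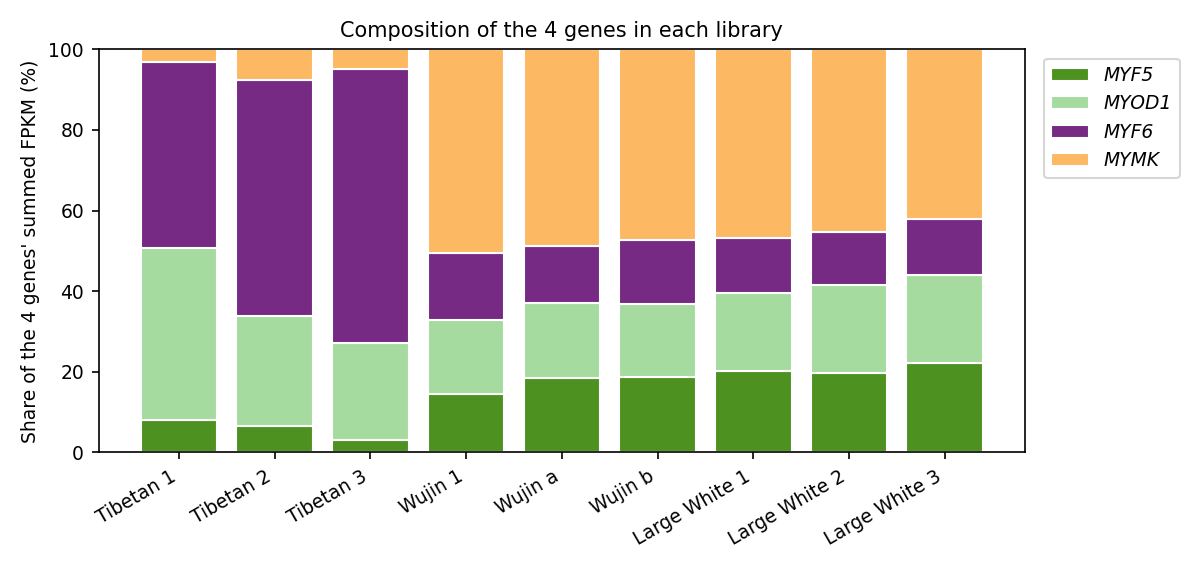
Share of each gene in the summed FPKM of MYF5, MYOD1, MYF6 and MYMK (bars, %, from 0 to 100) in each of the 9 libraries. MYF6 is the largest part of every Tibetan bar, at 46.2% to 68.0%, and MYMK is the largest part of every Wujin and Large White bar, at 42.0% to 50.6%.

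Ratios between the genes were tested over the 9 libraries as log2((A + 1)/(B + 1)), with an exact permutation test for any difference among the 3 breeds; the smallest p it allows is 0.00357. The 6 pairs share members, so they are not independent. MYF6 stood to MYF5 as 5.79, 8.86 and 22.8 to 1 in Tibetan 1, 2 and 3 without a pseudocount. The ratio was 1.14, 0.776 and 0.847 in Wujin 1, a and b, against 0.686, 0.669 and 0.631 in Large White 1, 2 and 3. The breeds did not overlap, and the mean log2 ratio was 3.13 ± 0.90 in Tibetan, -0.14 ± 0.28 in Wujin and -0.58 ± 0.06 in Large White libraries (exact permutation p = 0.00357, 0.00536 adjusted over the 6 pairs). MYMK over MYF6 was 0.0674, 0.131 and 0.0719 in Tibetan, against 2.99 to 3.41 in Wujin libraries and 3.01 to 3.45 in those of Large White. The mean log2 ratio was -3.24 ± 0.43 in Tibetan, 1.64 ± 0.10 in Wujin and 1.68 ± 0.10 in Large White libraries, and the Wujin and Large White ratios overlapped (exact permutation p = 0.025, adjusted 0.025). MYMK over MYF5, the ratio of the 2 genes that were lowest in Tibetan muscle, was 0.390, 1.16 and 1.64 in Tibetan, 3.51, 2.64 and 2.53 in Wujin and 2.32, 2.31 and 1.90 in Large White libraries. MYMK was thus lower relative to MYF5 too in every Tibetan library, and the Wujin and Large White ratios did not overlap either. The test for any difference among the 3 breeds gave an exact permutation p of 0.00357 (adjusted 0.00536), which does not single out the Tibetan libraries. MYOD1 over MYF5 was 4.12 to 8.10 in Tibetan, against 0.964 to 1.28 in Wujin libraries and 0.957 to 1.12 in those of Large White (exact permutation p = 0.0214, adjusted 0.025). The remaining pairs, MYF6 over MYOD1 and MYMK over MYOD1, each gave an exact permutation p of 0.00357 (adjusted 0.00536).

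The bHLH factors work with E proteins and with MEF2 factors, and this list of partners and cofactors had 15 of 18 members matched and tested. MYOG, the factor of terminal differentiation, was among the genes not matched by symbol, as were PAX7 and MYMX. Of the 15, 10 were lower, 1 higher and 4 not called in Tibetan against Large White libraries, with a median log2 change of -1.74 beside -0.77 for all tested genes. That is 66.7% lower, near the 63.2% of all tested genes called lower. After scaling 8 were lower and 5 higher (53.3% and 33.3%, beside 33% and 32.4% of all tested genes), with a median of -0.77 beside -0.01. The E proteins TCF3, TCF4 and TCF12 were lower on both scales. TCF12 averaged 5.72 ± 0.552 FPKM in Tibetan and 59.1 ± 6.54 FPKM in Large White libraries (fitted change -3.16 ± 0.30, limma adjusted p = 1.21e-05; scaled -2.26). TCF3 averaged 1.27 ± 0.103 FPKM in Tibetan and 12.0 ± 0.649 FPKM in Large White libraries (-2.52 ± 0.11; scaled -1.80). HES6, a bHLH protein that promotes myogenesis in mice, averaged 1.34 ± 0.133 FPKM in Tibetan and 16.9 ± 1.82 FPKM in Large White libraries. CDON and BOC, surface receptors that promote MYOD1 activity in myoblasts, changed by -2.87 ± 0.27 and -2.43 ± 0.25. The 4 MEF2 factors tested split: MEF2C changed by -1.74 ± 0.14 and was lower on both scales, whereas MEF2D was called higher on both (0.52 ± 0.16, scaled 1.45). MEF2A was called higher only after scaling (1.26; 0.35 as deposited, limma adjusted p = 0.056), and MEF2B lower only as deposited (-0.66, limma adjusted p = 0.00395; scaled -0.25, adjusted p = 0.235). In Wujin against Large White 1 of 15 was called, a share of 6.67% beside 6.52% of all tested genes. It was CDON, which was lower with a change of -1.14 ± 0.27 (limma, adjusted p = 0.0435), and it was not called after scaling (-0.91, adjusted p = 0.057). Before adjustment, 6 of the 15 had a limma p under 0.05 after scaling. The matching share of all tested genes is not given here, so nothing is read from this count.

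Among inhibitors of the bHLH factors, most of those tested were called lower in Tibetan muscle. Of 24 listed, 15 were matched and 13 tested, of which 11 were lower, 1 higher and 1 not called against Large White, with a median of -1.84 beside -0.77 for all tested genes. The share called lower was 84.6%, beside 63.2% of all tested genes. After scaling 10 were lower and 1 higher (76.9% and 7.69%, beside 33% and 32.4% of all tested genes; median -1.01 beside -0.01). MDFI, which holds myogenic factors out of the nucleus, averaged 0.339 ± 0.199 FPKM in Tibetan, 22.5 ± 5.57 FPKM in Wujin and 27.3 ± 2.29 FPKM in Large White libraries. MSC, musculin, a bHLH repressor, averaged 1.16 ± 0.213 FPKM in Tibetan, 39.7 ± 4.18 FPKM in Wujin and 43.1 ± 2.97 FPKM in Large White libraries. Their fitted changes of Tibetan minus Large White were -4.41 ± 0.18 and -4.35 ± 0.13 (limma, adjusted p = 1.21e-07 and 2.85e-08), beside -4.31 for MYMK. DLL1, a Notch ligand, and NOTCH3 and NOTCH2, receptors of a pathway that holds back myogenic differentiation, changed by -2.71 ± 0.15, -2.60 ± 0.16 and -2.56 ± 0.35. The gene called higher was BHLHE41, a bHLH repressor, at 2.99 ± 0.0445 FPKM in Tibetan and 0.117 ± 0.0756 FPKM in Large White libraries. BHLHE41 passed the filter on low values only through its Tibetan level. Some genes called lower, in this and the other lists, likewise passed it only through their Wujin and Large White levels. Among them, MDFI, EYA2 and MEF2B averaged 0.339, 0.349 and 0.451 FPKM in Tibetan libraries. Of Wujin against Large White, 1 of 13 was called on both scales: JAG2, a Notch ligand, was higher by 0.95 ± 0.18 (limma, adjusted p = 0.0298; scaled 1.18). That is a share of 7.69%, beside 6.52% of all tested genes called as deposited and 3.14% after scaling.

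Of 18 factors upstream of the family, 11 were matched and 10 tested. Against Large White, 8 were lower in Tibetan muscle and 2 not called (80% lower, beside 63.2% of all tested genes; median -1.39 beside -0.77). After scaling 5 were lower and 2 higher (50% and 20%, beside 33% and 32.4%; median -0.65 beside -0.01). MEOX2, a homeobox factor of the somite and limb muscle, averaged 6.75 ± 0.846 FPKM in Tibetan and 45.8 ± 2.41 FPKM in Large White libraries (-2.60 ± 0.25; scaled -1.69). EYA3, MEOX1, SIX2 and PITX3 changed by -2.01 ± 0.18, -1.35 ± 0.18, -1.10 ± 0.15 and -1.63 ± 0.29, and the last 2 of these were not called after scaling. LBX1, a factor of migrating muscle precursors, was called higher after scaling (0.74). PAX3, which acts above the family in progenitors, stayed under the filter, with 0.0799 to 0.159 FPKM in Tibetan libraries, 0 to 0.142 FPKM in Wujin libraries and 0 to 0.104 FPKM in those of Large White. In Wujin against Large White, LBX1 was higher on both scales (0.99 ± 0.20, limma adjusted p = 0.0317) and EYA2 was lower as deposited only (-0.64 ± 0.16, limma adjusted p = 0.0485). As deposited that is 10% higher and 10% lower, beside 1.67% and 4.85% of all tested genes. After scaling it is 10% higher and 0% lower, beside 1.87% and 1.27%. Each share rests on at most 1 gene, so nothing is read from it.

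Of the genes of the fusion machinery beside MYMK, 21 of 34 symbols were matched and 19 tested. Against Large White, 17 were lower in Tibetan muscle, 0 higher and 2 not called (89.5% lower, beside 63.2% of all tested genes; median -1.25 beside -0.77). After scaling 10 were lower and 2 higher (52.6% and 10.5%, beside 33% and 32.4%; median -0.48 beside -0.01). JAM3, an adhesion molecule, averaged 4.80 ± 0.805 FPKM in Tibetan and 72.9 ± 3.03 FPKM in Large White libraries (-3.68 ± 0.22; scaled -2.79). KIRREL1, an adhesion protein whose fly relatives mediate fusion, changed by -2.72 ± 0.37, MYOF, myoferlin, a membrane repair and fusion protein, by -2.62 ± 0.21, and MYO10, a motor of filopodia, by -2.55 ± 0.20. CDH15, the cadherin of myoblasts, averaged 16.6 ± 5.06 FPKM in Tibetan, 102 ± 15.0 FPKM in Wujin and 73.8 ± 0.890 FPKM in Large White libraries (Tibetan minus Large White -2.13 ± 0.20; scaled -1.18). CDH2, N-cadherin, was listed at 0 in all 3 Tibetan libraries. It was listed at 0, 9.82 and 6.09 FPKM in Wujin 1, a and b, against 28.9, 22.2 and 38.5 FPKM in Large White libraries. An exact 0 in such a table can be a failed estimate, and no fold is given for it. Without CDH2, 16 of 18 were lower as deposited and 9 of 18 after scaling. CD9, a tetraspanin, and CRKL, an adaptor protein, were the 2 called higher after scaling (1.35 and 0.70). In Wujin against Large White limma called 0 of 19 on either scale, beside 6.52% of all tested genes as deposited and 3.14% after scaling. Before adjustment, 9 of the 19 as deposited and 8 after scaling had a limma p under 0.05. The matching share of all tested genes is not given here, so nothing is read from these counts.

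Targets of the factors divided. Of 25 listed, 13 were matched and tested, of which 5 were higher, 5 lower and 3 not called in Tibetan against Large White libraries (38.5% higher and 38.5% lower, beside 13% and 63.2% of all tested genes; median -0.34 beside -0.77). After scaling 7 were higher and 4 lower (53.8% and 30.8%, beside 32.4% and 33%; median 0.43 beside -0.01). ACTA1, skeletal actin, was among those not called on either scale, as it was listed at 0 in Tibetan 2, against 37420 and 41830 FPKM in Tibetan 1 and 3 and 3208 to 4067 FPKM in Large White libraries. Without Tibetan 2, ACTA1 was called higher (3.44 ± 0.16, limma adjusted p = 1.61e-06). In that fit 6 of the 13 were higher and 5 lower, where 13.1% of all tested genes were called higher and 59.8% lower. The list's median without Tibetan 2 was -0.19 beside -0.74, or 0.75 beside -0.0076 after scaling. Lower were ACTC1, the cardiac actin of developing muscle, with -8.02 ± 0.15, and MYH3, the embryonic myosin heavy chain, with -4.79 ± 0.16. CHRNA1, a subunit of the acetylcholine receptor, changed by -3.87 ± 0.31 and MUSK, the kinase that organises the endplate, by -2.74 ± 0.20. Higher were LMOD2, an actin filament nucleator, at 260 ± 24.0 FPKM in Tibetan and 34.2 ± 4.28 FPKM in Large White libraries, and CHRNE, the receptor subunit of mature endplates, at 4.20 ± 0.452 and 1.96 ± 1.31 FPKM. DES, desmin, was higher too, by 1.37 ± 0.14. MUSK was the 1 of 13 called in Wujin against Large White, which was lower with a change of -1.77 ± 0.20 (limma, adjusted p = 0.00445; scaled -1.52, adjusted p = 0.0119), at 2.85 ± 0.185 FPKM in Wujin and 12.2 ± 2.28 FPKM in Large White libraries. The share called, 7.69% on either scale, stood beside 6.52% of all tested genes as deposited and 3.14% after scaling.

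**Figure D4:**
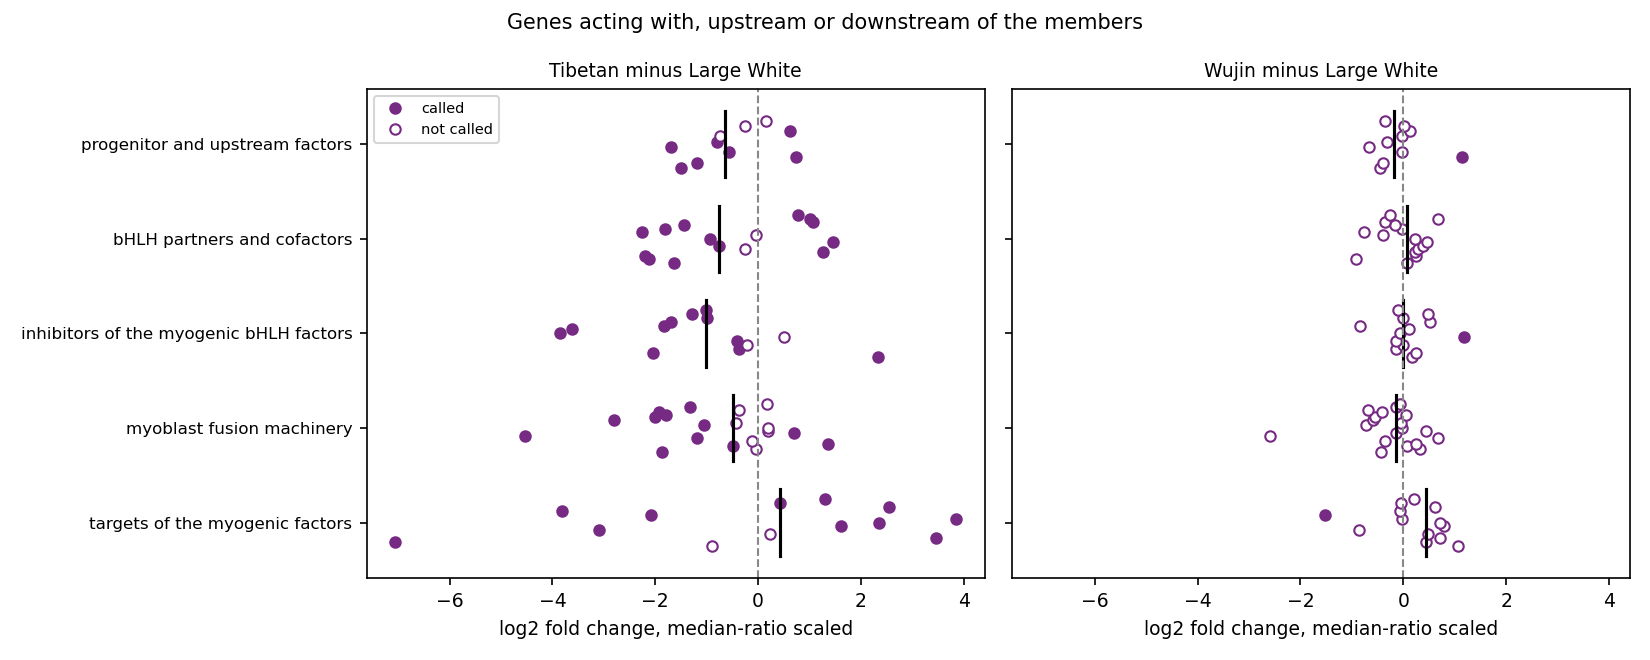
Fitted log2 change after median-ratio scaling of each tested gene (points, filled where called) in 5 lists of the myogenic programme, with the list median (bar) and the median of all tested genes (dashed line). In Tibetan minus Large White the medians of 4 lists lie left of the dashed line and that of the targets lies right of it, at 0.43. In Wujin minus Large White called points are few, 1 each in 3 of the lists.

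The genes most like each of the 4 were sought by the root mean square (RMS) difference between centred log2(FPKM + 1) profiles over the 9 libraries, among 8081 other tested genes with a symbol. Nearest to MYF5 were THBS3, PIK3R2, MMP2, VSTM4 and TSKU, with differences of 0.18 to 0.22 beside an RMS of 1.51 for MYF5 itself. Nearest to MYMK were ERBB3, FSCN1, DPYSL5, CKB and CPA1, at 0.33 to 0.39 beside 2.18 for MYMK. ERBB3, a neuregulin receptor, stood at 0.271 FPKM on average in Tibetan, 32.9 in Wujin and 32.2 in Large White libraries. Nearest to MYOD1 were LDB1, CLK2, SF3B2, PES1 and CCAR2, at 0.08 to 0.09 beside 0.49. Nearest to MYF6 were PLEKHH3, DYRK1B, TBC1D17, RCSD1 and KANK3, at 0.14 to 0.18 beside 0.37, so these follow MYF6 less closely for its size. DYRK1B, a kinase, averaged 38.9 FPKM in Tibetan, 44.9 in Wujin and 23.8 in Large White libraries. These lists hold for FPKM as deposited. After median-ratio scaling the genes named ranked 2 to 11 for MYF5, 5 to 22 for MYOD1, 1 to 13 for MYF6 and 2 to 19 for MYMK. A gene that separates the breeds in the same way is near by this measure whatever its role.

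Markers of the labelled tissue were present in every breed. The 6 matched of 10 muscle fibre markers summed to 25479 to 72209 FPKM in Tibetan libraries, 18807 to 22447 FPKM in Wujin libraries and 10758 to 14180 FPKM in those of Large White. The 0 listed for ACTA1 in Tibetan 2 lowers that library's sum. Markers of other cells moved with the Tibetan group, and their part in the results above was not tested. The 7 matched of 8 fibroblast markers summed to 323 to 359 FPKM in Tibetan libraries, 3070 to 5582 FPKM in Wujin libraries and 5313 to 5951 FPKM in those of Large White. After scaling they summed to 455 to 569 in Tibetan, 3131 to 4593 in Wujin libraries and 3918 to 4511 in those of Large White. The 5 matched of 7 erythroid markers summed to 149 to 579 FPKM in Tibetan libraries, 1470 to 3838 FPKM in Wujin libraries and 1931 to 3744 FPKM in those of Large White, with GATA1 at 0 in all Tibetan libraries. The 4 matched of 6 Schwann cell markers, ERBB3 among them, summed to 9.37 to 16.8 FPKM in Tibetan libraries, 36.4 to 46.0 FPKM in Wujin libraries and 34.0 to 39.4 FPKM in those of Large White. The 4 matched of 6 endothelial markers summed to 32.0 to 43.7 FPKM in Tibetan libraries, 52.6 to 82.2 FPKM in Wujin libraries and 84.1 to 88.7 FPKM in those of Large White, and the ranges overlapped after scaling (51.3 to 63.7, 53.6 to 68.5 and 62.0 to 68.4). The 5 matched of 7 macrophage markers, at 16.2 to 35.1 FPKM in Tibetan libraries, 14.1 to 20.6 FPKM in Wujin libraries and 21.7 to 31.9 FPKM in those of Large White, overlapped between Tibetan and both other breeds as deposited. After scaling they summed to 23.6 to 56.2 in Tibetan, 14.4 to 16.9 in Wujin libraries and 16.0 to 24.2 in those of Large White, so Tibetan and Wujin no longer overlapped. The 2 matched of 5 adipocyte markers summed to 1.60 to 5.50 FPKM in Tibetan libraries, 0.228 to 1.49 FPKM in Wujin libraries and 0.0516 to 0.155 FPKM in those of Large White, with PLIN1 at 0 in all Large White libraries.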

How the data were processed

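Embryonic longissimus dorsi RNA of 9 libraries was analysed, 3 per breed. Per the labels' protocols, Trizol RNA, 3 ug a library, went into a TruSeq preparation. The authors deposited 1 table of FPKM per gene. The submitters' processing notes name TopHat. The quantifier, build, annotation and strand setting were not given in the sources used here. Symbols were matched by Ensembl identifier for 11179 entries (56.91%).

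limma 3.58.1 in R 4.3.3 fitted 1 mean per breed to log2(FPKM + 1) of 13106 entries averaging at least 1 FPKM, with a trended prior and Benjamini-Hochberg adjustment over all of them. Permutation tests and figures used Python 3.11.15, scipy 1.17.1 and matplotlib 3.10.9. The fit, scaling and permutation code was tested on simulated data. Columns were assigned by header; 2 columns share 1 header and were taken as Wujin without a number. No 2 libraries of a breed were identical.

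The members and lists were chosen with earlier results of these data known. Named genes were the 4 members, the 5 nearest genes to each, MYOG, MYMX, PAX3 and PAX7, and per list up to 5 genes of largest change in Tibetan minus Large White and 2 in Wujin minus Large White, called and averaging at least 5 FPKM. TCF4, MEF2A, MEF2C, MEF2D, BHLHE41, ACTA1, MEF2B, LBX1, EYA2, CDH15, CD9, CRKL, CHRNE and DES are named beyond it, with their values already known. Results were recomputed with a pseudocount of 0.1 or 5, without the filter, with one at 5 FPKM, and with median-ratio scaling, quantile normalization, fits of 2 breeds only, a replicate block and leaving out each library. No sequences are shown, as none were used here. A few genes of the lists are not reported by name here.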

Additional observations from a re-analysis of the deposited data

How the results depend on the processing

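MYF5 and MYMK were called lower in Tibetan than in either other breed under every alternative run, from -3.35 to -1.97 (MYF5) and -4.60 to -3.05 (MYMK) on the log2 scale against Large White, and none of the 4 genes was called between Wujin and Large White under any of them. MYOD1 turned to 0.060 in Tibetan minus Large White with median-ratio scaling, and was no longer called in Tibetan minus Wujin (-0.35); with quantile normalization it stayed lower in both (-0.55 and -0.82). MYF6 was newly called in Tibetan minus Wujin with median-ratio scaling (0.78), but not with quantile normalization (0.21; limma adjusted p = 0.402). In Tibetan minus Large White it was not called with only the 6 libraries (0.60; limma adjusted p = 0.0553). The replicate block gave 0.60 (limma adjusted p = 0.0617) and 10025 calls in all against 9983, and changed no other member's call. Same-numbered Tibetan and Large White libraries deviated together with correlations of 0.013, -0.0226 and -0.076, so the numbers were not taken as pairs. Leaving out 1 library gave -1.04 to -0.77 for MYOD1 in Tibetan minus Large White, -1.22 to -0.95 in Tibetan minus Wujin, 0.34 to 0.84 for MYF6 in Tibetan minus Large White and -0.21 (without Tibetan 3) to 0.29 in Tibetan minus Wujin. With median-ratio scaling as well, an alternative chosen after seeing the data, leaving out 1 library gave -0.04 to 0.15 for MYOD1 in Tibetan minus Large White, -0.47 to -0.23 in Tibetan minus Wujin, and 1.32 to 1.84 for MYF6 in Tibetan minus Large White and 0.54 to 1.07 in Tibetan minus Wujin.

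Genes called in Wujin minus Large White numbered 855, but 270 with a pseudocount of 0.1, 1831 with 5, 402 with at least 5 FPKM, 412 with median-ratio scaling and 281 with only the 6 libraries. They numbered 62 to 1627 with 1 library left out, and 40 to 473 with scaling as well. With at least 5 FPKM, which tests fewer genes, calls were 5533 in Tibetan minus Large White and 5181 in Tibetan minus Wujin, against 9983 and 8871. The median change of the targets list in Tibetan minus Large White was -0.34, against 0.43 with median-ratio scaling and, in alternatives chosen after seeing the data, -0.19 without Tibetan 2 and 0.75 without it and with scaling. The 6 ratios kept their direction and call under the alternatives run for them. Other causes of these shifts were not tested. Read depth is unknown, so the counting error of low values, such as those of MYF5 and MYMK in Tibetan libraries, cannot be given.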
